A study of Mus musculus with 12 samples.

Results

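Axon guidance molecules tell a growing axon where to extend and where to turn away. This account follows 8 of them in sensory neurons of mouse dorsal root ganglia after a nerve crush: the membrane-bound semaphorin Sema6a, the adhesion protein Flrt3, the plexins Plxna2 and Plxna4, the neuropilins Nrp1 and Nrp2, and the Slit receptors Robo1 and Robo2. They were chosen by name, with earlier results of these data known. Their counts were summed over the 3′-end positions that lie on the strand of each gene. Of the 8 members, 7 had counts that entered the tests, among 11604 genes tested in all. Plxna4 (chromosome 6, 32144543 to 32588192, GRCm38) was not analysed here.

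Semaphorins are ligands that mostly repel axons, and plexins are the receptors that bind them and pass the signal to the cytoskeleton. Sema6A spans the membrane and binds plexin-A2 and plexin-A4 directly, whereas the secreted class 3 semaphorins need a neuropilin beside a plexin. Slits are secreted repellents read by Robo receptors, and FLRT3 is a leucine-rich repeat protein of the membrane that binds Unc5 receptors and latrophilins and, in mouse thalamic axons, Robo1. In the sensory neurons of the ganglion this system guides axons in the embryo, and several of its genes are known to change when an adult axon is cut.

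The mice carried a Cre recombinase under control of the advillin (Adv) gene together with the RiboTag allele, so that sensory neurons made ribosomes with an HA tag on RPL22. One sciatic nerve was crushed, and lumbar ganglia L4 to L6 were collected 3 days later from the injured and the uninjured (naive) side, so the naive ganglia came from mice with a crush on the other side. Both alleles were shared by all 4 groups, and the labels used here give neither age nor strain. Each replicate pooled the ganglia of 4 mice. RNA came from the material before precipitation (input) and from the HA precipitate (IP), and each was made from naive and from injured ganglia, which gave 4 groups of 3 libraries. The libraries were of the QuantSeq REV type, which reads RNA from its poly(A) end, so each read is taken to mark where a transcript stops.

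Total counts ran from 10045178 to 18687123 per library. All 14 sensory neuron markers were tested, and their summed level was 19695 to 20422 CPM (counts scaled to the size of the library) in IP naive and 17003 to 17454 in input naive. RNA of other cells was lower in the IP but was not gone. The 8 measured of 9 satellite glia markers summed to 723 to 974 CPM in IP naive against 3043 to 3357 in input naive, and the 9 of 10 Schwann cell markers to 1046 to 1391 against 3899 to 5077. The 9 of 11 macrophage markers summed to 27.6 to 45.0 CPM against 241 to 343, and the 8 of 9 fibroblast markers to 246 to 497 against 2370 to 2918. Of the markers measured, Kcnj8 of the pericyte list was at 0 in the IP libraries.

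In the IP, 2 of the 7 tested members rose after injury and none fell, where 1.39% of all tested genes were called at an adjusted p under 0.05, 1.21% higher and 0.181% lower (edgeR quasi-likelihood test, Benjamini-Hochberg adjustment over all genes, two-sided). Sema6a and Flrt3 were these 2. The same 2 members rose in the input, where 1.14% of all genes were called, 0.862% higher and 0.276% lower. Plxna2, Nrp1, Nrp2, Robo1 and Robo2 did not pass the threshold in either fraction. The median log2 change over the 7 members was 0.18 in the IP and 0.26 in the input, beside 0.01 and 0.00 over all tested genes. As the members were chosen with earlier results known, these shares and medians describe the list and test nothing about it.

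**Figure D1:**
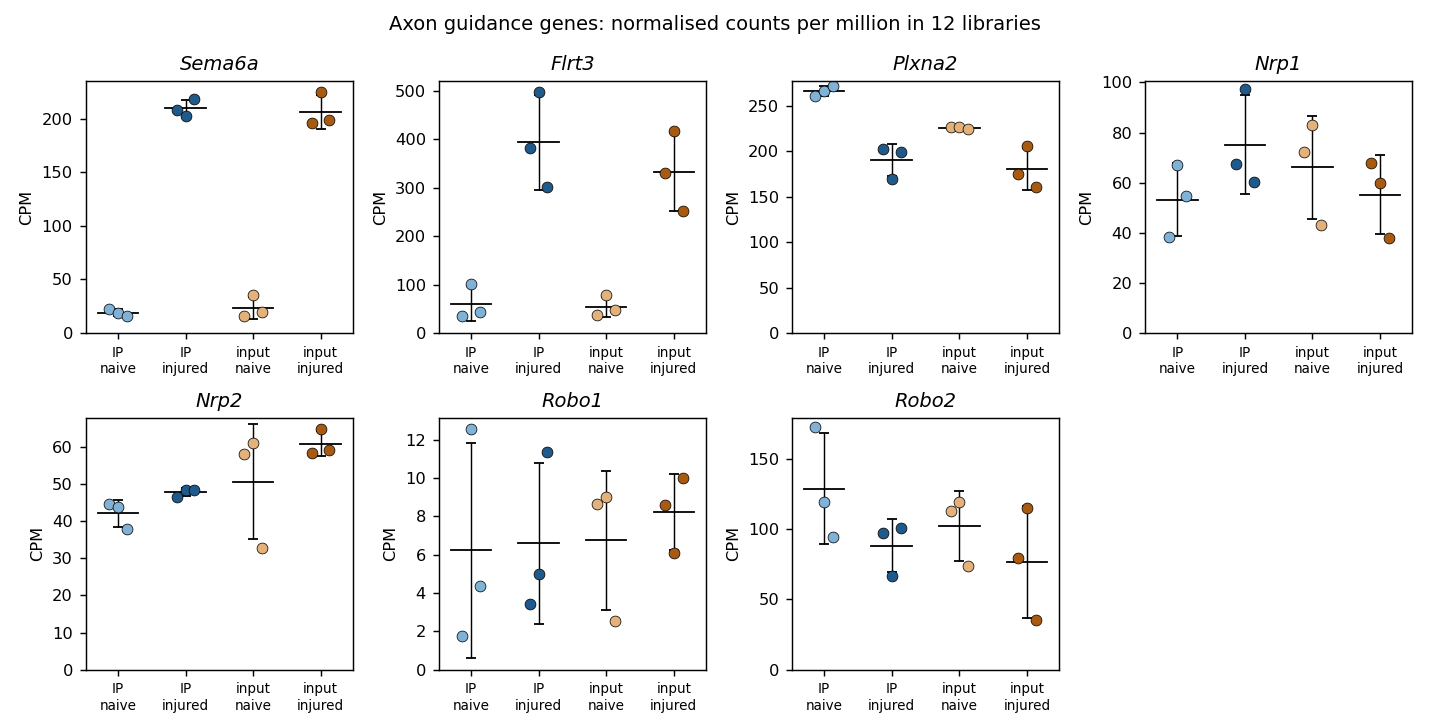
Normalised level (CPM, linear axis from 0) of the 7 measured members in each of the 12 libraries. Points are libraries, horizontal lines are group means and vertical bars are 1 SD over 3 libraries. Sema6a and Flrt3 stand apart between naive and injured libraries in both fractions, with every injured library above every naive one, while the Nrp1, Robo1 and Robo2 groups overlap.

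Sema6a, the transmembrane semaphorin (chromosome 18, 47245254 to 47371200), was low in naive ganglia. Its levels in IP naive libraries 1 to 3 were 22.4, 18.6 and 15.995 CPM, and those in IP injured libraries were 208, 203 and 218 CPM. The naive values lay close together and none came near the injured ones. The mean went from 19.01 ± 3.23 to 209.5 ± 7.78 CPM (SD, n = 3), a fitted rise of 11.02-fold (log2 3.46 ± 0.25 SE, adjusted p = 6.00e-08). In the input, naive libraries held 15.9, 35.1 and 19.2 CPM and injured ones 196, 225 and 198 CPM. Input naive 2 was the highest of the naive libraries and still far below each injured one. The rise there was 8.77-fold (log2 3.13 ± 0.25, adjusted p = 3.10e-07).

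The rise of Sema6a was not shown to differ between the fractions. Its log2 change was larger in the IP by 0.33 ± 0.33, with a 95% interval of -0.36 to 1.02 (unadjusted p = 0.329). In bulk samples such as these, a change in the number of cells of a type and a change in RNA per cell cannot be told apart. Leaving out any 1 library kept both calls, with a highest adjusted p of 2.01e-06 in the IP and 5.57e-06 in the input. Counting only positions within 100 bp of the annotated 3′ end gave a log2 rise of 5.55 in the input, in place of 3.13. In the IP that count gave 3.04, in place of 3.46. The position counted, 17 bp upstream of that end, had 10, 17 and 0 counts in the input naive libraries. Some marker lists moved with injury too. Summed satellite glia markers were 1054 to 1356 CPM in IP injured, above the IP naive range, and summed macrophage markers were 379 to 530 CPM in input injured, above the input naive range. Summed sensory neuron markers were 18355 to 19575 CPM in IP injured and 15961 to 16340 CPM in input injured, each below the naive range of its fraction. Summed fibroblast markers were 3157 to 3367 CPM in input injured, above the input naive range. The part of these shifts in the changes of Sema6a and Flrt3 was not tested.

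Flrt3, the leucine-rich repeat adhesion protein (chromosome 2, 140658198 to 140671476), showed the second rise. IP naive libraries held 35.9, 102 and 43.4 CPM, and IP injured libraries held 383, 497 and 302 CPM. IP naive 2 was well above the other naive libraries but below all injured ones. The fitted rise was 6.53-fold (log2 2.71 ± 0.34, adjusted p = 5.14e-05), and without IP naive 2 it was 3.30 on the log2 scale. In the input, naive libraries held 36.8, 77.9 and 47.1 CPM and injured ones 331, 416 and 253 CPM, a rise of 6.16-fold (log2 2.62 ± 0.34, adjusted p = 0.000104). Library 2 was the highest of its group in all 4 groups. The log2 change in the IP was larger than in the input by 0.08 ± 0.45, with a 95% interval of -0.87 to 1.03. Both calls were kept without any 1 library (highest adjusted p = 0.000854 in the IP and 0.00206 in the input).

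The promoter of Flrt3 is shown because the gene rose in both fractions. The window of 300 bases around its transcription start, chr2:140671427-140671726 on the minus strand (RefSeq, GRCm38.p6), is given 5′ to 3′. Capitals mark the match to TGACNTCA, a form of the cAMP response element TGACGTCA in which the base after TGAC is free.
Flrt3: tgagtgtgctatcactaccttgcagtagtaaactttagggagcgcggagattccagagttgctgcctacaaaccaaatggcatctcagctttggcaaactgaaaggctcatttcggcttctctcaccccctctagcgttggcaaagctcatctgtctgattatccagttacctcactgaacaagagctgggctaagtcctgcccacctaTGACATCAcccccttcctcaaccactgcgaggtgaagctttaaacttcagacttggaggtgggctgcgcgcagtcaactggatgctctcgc
The match starts at position 210 of the window, counted from its 5′ end. On either strand, 8.8% of 32851 RefSeq promoter windows of this length hold TGACNTCA, so the match is a common one. The exact cAMP response element TGACGTCA, which TGACNTCA includes, is in 1.8% of windows. TGANTCA, a wider form of the AP-1 element with the middle base left free, is in 7.8%. Neither was found in the 8 windows of the 6 members matched in the promoter table. The same search covered CCAATCA (in 7.8% of all windows), ACAAAG (18.7%) and TATAAA (13.6%), which were in no window of a member either, and CACGTG (7.2%) and GGGCGG (35.7%). A match is a run of letters and not evidence of binding.

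Plxna2, the plexin that binds Sema6A (chromosome 1, 194619791 to 194816869), had the highest level of the 7 members in naive ganglia. IP naive libraries held 261, 266 and 271 CPM, and IP injured libraries held 202, 169.7 and 199 CPM. All injured libraries were below all naive ones, and so were they in the input, with 227, 227 and 224 CPM in naive and 175, 206 and 161 CPM in injured libraries. The log2 change was -0.48 ± 0.14 in the IP (unadjusted p = 0.00312, adjusted p = 0.129) and -0.32 ± 0.14 in the input (adjusted p = 0.408), so neither passed the threshold. With DESeq2 the IP change passed (log2 -0.50, adjusted p = 0.0145). Injured libraries lay below naive ones without overlap in 8.38% of all tested genes in the IP and in 7.26% in the input.

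The promoter of Plxna2, the receptor of Sema6A, is shown because the level of this gene was lower in every injured library than in every naive one. It covers chr1:194619579-194619878 on the plus strand (RefSeq, GRCm38.p6), and the capitals mark the GC box GGGCGG, the most common of the motifs searched.
Plxna2: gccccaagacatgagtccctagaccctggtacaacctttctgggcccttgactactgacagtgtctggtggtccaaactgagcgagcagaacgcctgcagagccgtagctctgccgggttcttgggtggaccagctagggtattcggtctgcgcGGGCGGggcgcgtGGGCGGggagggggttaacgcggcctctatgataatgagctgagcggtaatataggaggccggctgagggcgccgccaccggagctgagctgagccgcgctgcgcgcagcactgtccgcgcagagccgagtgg
The matches start at positions 155 and 168. GGGCGG was also found in windows of Nrp1 and Nrp2, and CACGTG, the E-box, in a window of Robo2.

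Nrp1, the neuropilin that binds Sema3A (chromosome 8, 128358591 to 128505476), was at 38.2, 67.0 and 54.6 CPM in IP naive and 67.5, 97.6 and 60.2 CPM in IP injured. Input naive libraries held 72.4, 82.9 and 43.2 CPM and input injured ones 67.9, 59.96 and 37.8 CPM. The groups overlapped in both fractions. The log2 change was 0.50 ± 0.29 in the IP (adjusted p = 0.631) and -0.26 ± 0.29 in the input (adjusted p = 0.873). The difference between these changes, 0.76 ± 0.41 with a 95% interval of -0.11 to 1.62, did not pass the threshold (unadjusted p = 0.0821, adjusted p = 1.00). A position that the table names as a simple repeat, 128503333 to 128503365, carried 5355 counts and was left out of the gene sum. Repeat-named positions held 41.6% of all counts on Nrp1, and with them the log2 change in the IP was 0.13.

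Nrp2, the neuropilin that binds Sema3F (chromosome 1, 62703317 to 62818692), varied little between the IP libraries. It was at 44.6, 43.9 and 37.9 CPM in IP naive and 46.6, 48.5 and 48.4 CPM in IP injured. The IP groups did not overlap, with injured above naive as in 10.4% of all tested genes (7.56% in the input), and they differed by only 0.18 ± 0.24 on the log2 scale (adjusted p = 0.929, 95% interval -0.32 to 0.69). In the input it was at 58.1, 61.1 and 32.8 CPM in naive and 58.5, 64.8 and 59.3 CPM in injured libraries. Input naive 3 was the lowest of the 12 libraries, and the change of 0.26 ± 0.24 did not pass the threshold (adjusted p = 0.831).

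Robo2, a receptor for Slit proteins (chromosome 16, 73891976 to 75447443), was at 172, 119 and 94.7 CPM in IP naive and 97.5, 66.9 and 101 CPM in IP injured. The groups overlapped, and the log2 change was -0.54 ± 0.32 (adjusted p = 0.631). In the input it was at 113, 119.6 and 73.7 CPM in naive and 79.3, 115 and 35.6 CPM in injured libraries, a change of -0.42 ± 0.32 (adjusted p = 0.768).

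Robo1, the other Slit receptor measured (chromosome 16, 72027518 to 73047491), was the least abundant member, with 23 to 160 counts per library. Its levels were 1.78, 12.5 and 4.36 CPM in IP naive and 3.43, 4.99 and 11.4 CPM in IP injured. The IP injured values all lay within the range of the IP naive ones. Input naive libraries held 8.67, 9.003 and 2.56 CPM and input injured ones 8.59, 6.08 and 9.99 CPM. The log2 changes of 0.09 ± 0.77 in the IP and 0.29 ± 0.77 in the input had 95% intervals of -1.53 to 1.70 and -1.33 to 1.91, which include changes of several fold in either direction. The counts in IP naive libraries alone were 23, 124 and 60.

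**Figure D2:**
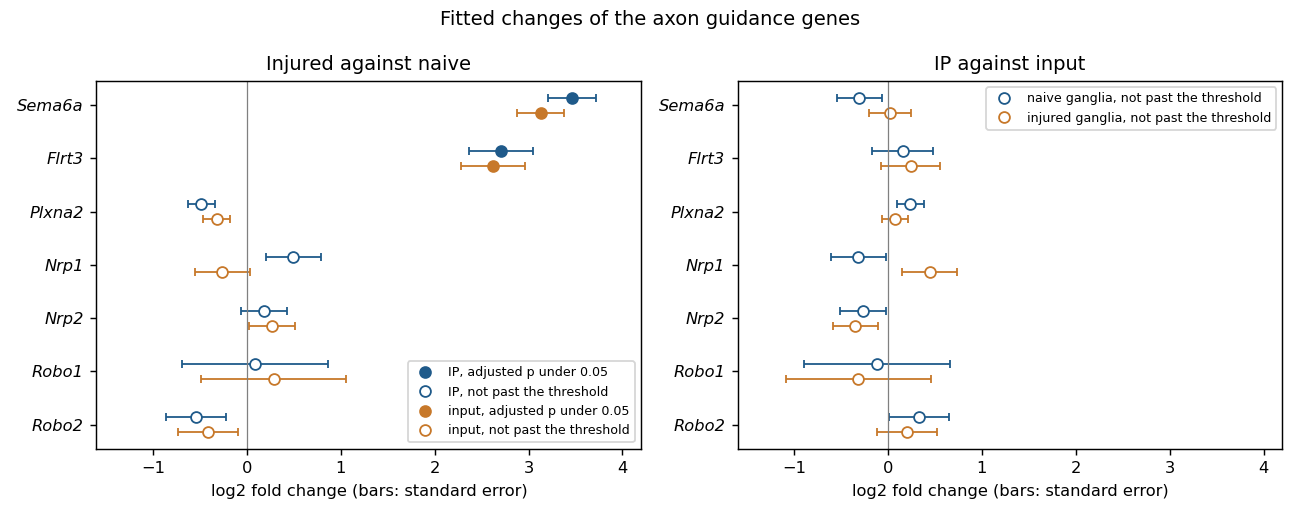
Fitted log2 fold changes of the 7 measured members, injured against naive on the left and IP against input on the right, with bars of 1 SE. Filled points passed the adjusted threshold. Sema6a (3.46 and 3.13) and Flrt3 (2.71 and 2.62) are the filled points on the left, and the panel on the right holds none.

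Because each read is taken to mark a transcript end, levels were not divided by length and could be ordered between genes, over the positions used. In IP naive, Plxna2 (266 ± 5.30 CPM, SD, n = 3) came first and did not overlap Robo2 (129 ± 39.7). Robo2 overlapped Flrt3 (60.5 ± 36.3), Flrt3 overlapped Nrp1 (53.3 ± 14.5), and Nrp1 overlapped Nrp2 (42.1 ± 3.69). Sema6a (19.01 ± 3.23) and Robo1 (6.23 ± 5.62) followed without overlap. After injury the ligand and the adhesion protein took the first places. In IP injured, Flrt3 (394 ± 97.8) was followed by Sema6a (209.5 ± 7.78), Plxna2 (190.2 ± 17.9) and Robo2 (88.3 ± 18.6), with no overlap between these neighbours. Robo2 overlapped Nrp1 (75.1 ± 19.8), and Nrp2 (47.9 ± 1.06) and Robo1 (6.59 ± 4.199) came last without overlap.

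In input naive, Plxna2 (226 ± 1.67 CPM) again came first, and Robo2 (102 ± 24.9), Nrp1 (66.2 ± 20.6), Flrt3 (53.9 ± 21.4), Nrp2 (50.7 ± 15.6) and Sema6a (23.4 ± 10.3) each overlapped the next. In input injured, Flrt3 (333 ± 81.9) stood above Sema6a (206 ± 15.9), which overlapped Plxna2 (181 ± 23.2). Robo2 (76.6 ± 39.7), Nrp2 (60.9 ± 3.40) and Nrp1 (55.2 ± 15.6) overlapped each other in turn, and Robo1 (8.22 ± 1.98) was last. The gap between Sema6a and Plxna2 in IP injured was narrow, at 202.67 against 202.35 CPM, and rests on leaving out repeat-named positions. With these included the ranges overlapped, from 194.76 CPM for Sema6a and up to 194.95 CPM for Plxna2. The place of Nrp1 also rests on leaving out repeat-named positions. With these included its mean stood above that of Flrt3 in IP naive (98.2 ± 10.8 against 59.3 ± 35.8 CPM) and above that of Robo2 in both injured groups (107 ± 13.2 against 93.3 ± 20.7 CPM in the IP, 92.6 ± 21.1 against 90.5 ± 47.5 in the input), with overlapping ranges in each case.

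The comparison of IP with input asks whether the RNA of a gene is enriched on the tagged ribosomes of sensory neurons. None of the 7 members was called in naive ganglia, where 6.86% of all tested genes were, nor in injured ganglia, where 5.77% were, and 0 of them had an unadjusted p under 0.05 in either comparison. DESeq2 called 0 as well. In naive ganglia the members' log2 differences ran from -0.31 (Nrp1 and Sema6a) to 0.33 (Robo2), with a median of -0.12 beside -0.03 over all genes. The sensory neuron markers had a median of 0.29, and of these 14 only 1 was called, higher in the IP. Medians were -2.57 for the satellite glia, -2.997 for the Schwann cell, -3.11 for the macrophage and -1.88 for the endothelial markers. In injured ganglia the members ran from -0.35 ± 0.24 (Nrp2, adjusted p = 0.520) to 0.44 ± 0.29 (Nrp1, adjusted p = 0.480). Of the 14 sensory neuron markers 4 were called there, all higher in the IP. No gene, and so no member, passed the threshold for a different injury change in IP and input (percent called 0). An unadjusted p under 0.05 was found for 397 genes, 3.42% of those tested, and DESeq2 called 15 genes.

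**Figure D3:**
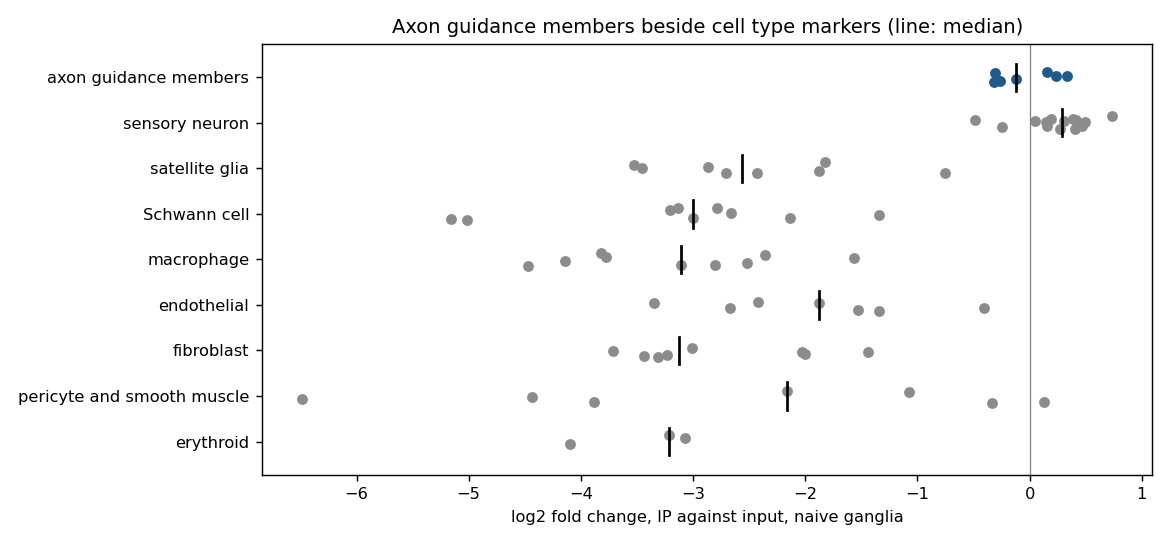
Log2 fold change of IP against input in naive ganglia for the 7 measured members and for the markers of 8 cell types. Each point is a gene and each vertical line a median. The members lie from -0.31 to 0.33, next to the sensory neuron markers (median 0.29) and above the medians of the other cell types.

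The libraries are made to read transcript ends, so the positions of the reads were also followed in each member. The sequence around them was not checked for a poly(A) signal or a run of A, so each is a candidate end. Sema6a had 7 used positions, at 17, 851, 934, 1639, 2077, 2187 and 2585 bp upstream of the annotated 3′ end. The 2 with the most counts, at 851 bp (47246105 to 47246137) and at 17 bp (47245271 to 47245296), held 24.3% and 22.7% of its counts. Among 46229 positions tested, 0.27% were called for injury in the IP and 0.195% in the input. In the IP the called positions of Sema6a lay at 851 bp (log2 3.40 ± 0.45, adjusted p = 0.00448), 2187 bp (2.96 ± 0.51, adjusted p = 0.0293) and 1639 bp (4.25 ± 0.66, adjusted p = 0.0140). In the input they lay at 17 bp (5.43 ± 0.83, adjusted p = 0.0169) and 2187 bp (3.26 ± 0.52, adjusted p = 0.0211). The call at 851 bp was kept without any 1 library. That at 17 bp was lost without input naive 1 or 2 or input injured 1 or 2 (adjusted p = 0.0526 to 0.0849). The call at 2187 bp was lost in the IP without IP naive 1 or IP injured 1 or 3 (adjusted p = 0.0713 to 0.0903), and in the input it was kept only without input injured 1 (highest adjusted p = 0.128 without the others). The call at 1639 bp was lost without IP naive 3 or IP injured 3 (adjusted p = 0.0505 and 0.0527). With the replicate number as a block the IP call at 2187 bp was lost as well (adjusted p = 0.0621).

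The position at the annotated end of Sema6a held few counts in the naive input. IP naive libraries had 113, 21 and 95 counts there, and input naive libraries had 10, 17 and 0. After injury the IP libraries had 809, 430 and 546 counts, and the input libraries 385, 565 and 257. As a share of the gene's counts this was 31.2 ± 17.3% in IP naive, 4.38 ± 4.21% in input naive, 23.5 ± 6.34% in IP injured and 22.7 ± 7.19% in input injured (SD, n = 3). The naive IP libraries, at 39.0%, 11.4% and 43.2%, were all above the naive input libraries, at 8.40%, 4.74% and 0%.

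Whether a gene's positions are used in different proportions was tested with diffSpliceDGE of edgeR in 5364 genes. Sema6a was the sole member called, for IP against input in naive ganglia (adjusted p = 0.0463), where 0.205% of these genes were called. No single position of it passed (17 bp, log2 share difference 1.99, adjusted p = 0.0761), where 0.0375% of 16001 positions did. The call was lost with the Simes summary (adjusted p = 0.146) and with the replicate number as a block (adjusted p = 0.107). It was kept only without IP naive 2 (adjusted p = 0.0136) and lost without any 1 of the other naive libraries (adjusted p = 0.0760 to 0.200). In injured ganglia, where 0.0186% of genes and 0.00625% of positions were called, the adjusted p of Sema6a was 1.00. No gene was called for an injury effect on position use in the IP or in the input (percent called 0 in both), while 210 and 446 genes had an unadjusted p under 0.05. The Simes summary called 0 too. The adjusted p of Sema6a was 1.00 in the IP and 0.515 in the input.

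**Figure D4:**
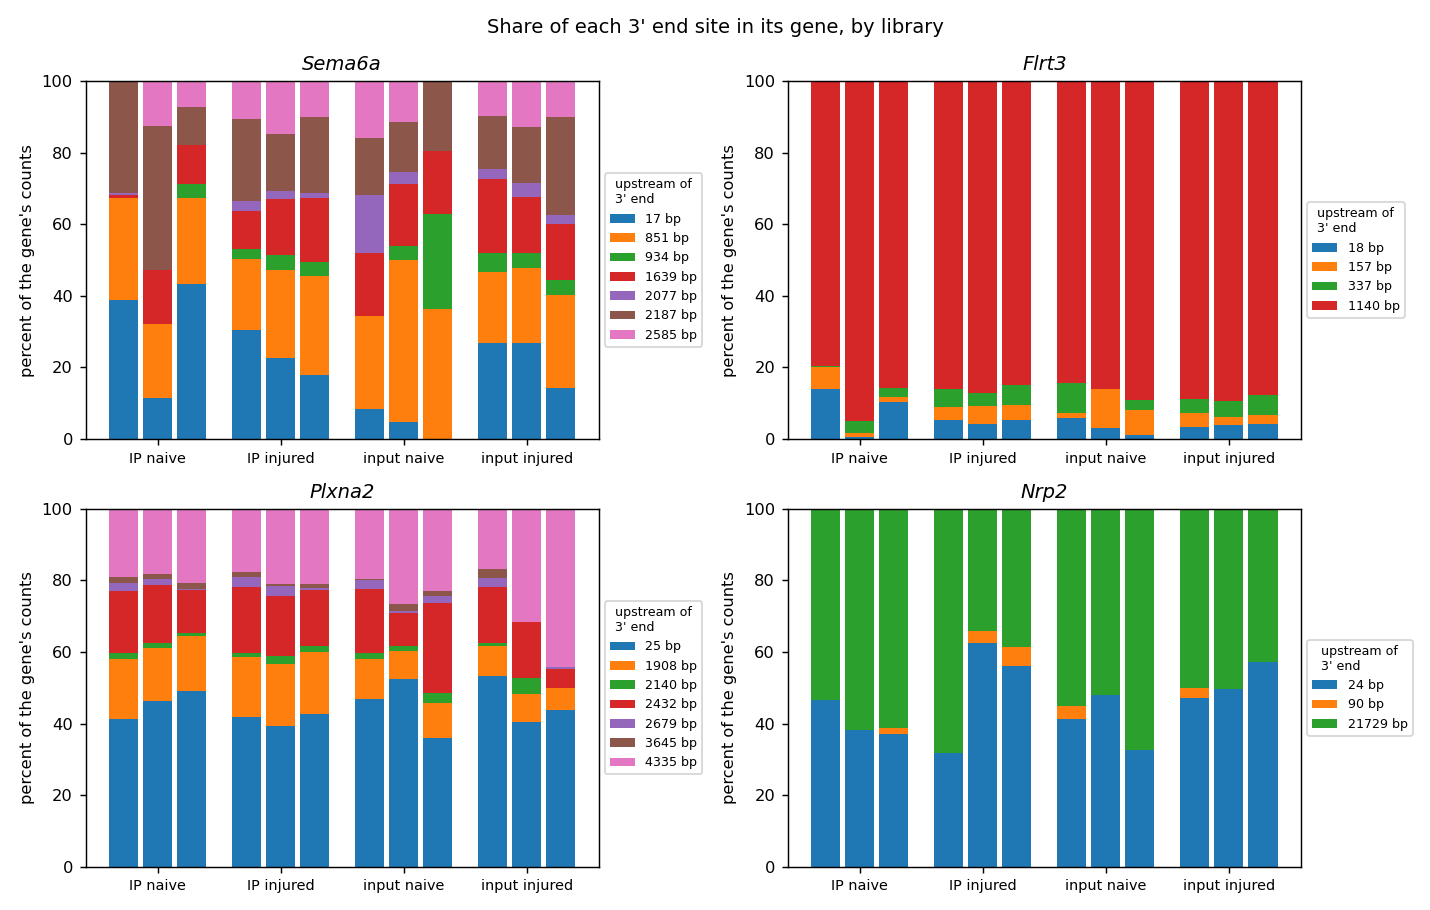
Share (percent of the gene's counts) of each 3′-end position in each of the 12 libraries, for Sema6a, Flrt3, Plxna2 and Nrp2; colours give the distance upstream of the annotated 3′ end, and each bar is 1 library. The 17 bp position of Sema6a is between 0% and 8.40% in input naive and between 11.4% and 43.2% in the other groups, while the 1140 bp position of Flrt3 holds most counts in every library.

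Counts of Flrt3 lay mainly at 1 place. Of its 4 positions, the one 1140 bp upstream of the annotated end (140659338 to 140659363) held 87.2% of the counts, and the one at 18 bp (140658216 to 140658257) held 4.604%. The share of the main position was 86.8 ± 7.74% in IP naive and 86.0 ± 1.11% in IP injured. Its level rose with injury in the IP (log2 2.62 ± 0.41, adjusted p = 0.0138) and in the input (2.56 ± 0.41, adjusted p = 0.0202). The IP call was lost without IP naive 3 (adjusted p = 0.0537), and the input call without input naive 1 or 3 or input injured 1 or 2 (highest adjusted p = 0.118). Counting only positions within 100 bp of the annotated end left Flrt3 short of the threshold, at 2.50 in the IP (adjusted p = 0.138) and 2.92 in the input (adjusted p = 0.0832). That sum leaves the main position out.

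Counts of the receptors also lay at several places. Plxna2 had 7 positions, with 44.4% of its counts at 25 bp (194816819 to 194816844) and 22.5% at 4335 bp (194812500 to 194812534). Nrp1 had 2 used positions, at 892 bp (66.9%, 128504559 to 128504584) and 17 bp (33.1%, 128505434 to 128505459). Nrp2 divided its counts between a position 21729 bp upstream of the annotated end (52.2%, 62796938 to 62796963) and one at 24 bp (46.4%, 62818643 to 62818668). The share of the far position of Nrp2 was 58.8 ± 4.69% in IP naive and 47.0 ± 18.5% in IP injured, where IP injured 1 held 68.2% and IP injured 2 held 34.1%. Its position use did not pass the test after injury (adjusted p = 1.00). Robo2 had 10 positions, led by those at 2398 bp (52.6%, 73894374 to 73894446) and 84 bp (21.2%, 73892060 to 73892102). Robo1 had 4, of which 2 were tested, at 1412 bp (77.2%, 73046054 to 73046079) and 21 bp (16.98%, 73047445 to 73047470). The 21 bp position of Robo1 held 35, 38 and 2 counts in input naive and 0 in all input injured libraries, and its change did not pass (adjusted p = 0.457).

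The pathway around the members was measured through 6 lists of guidance genes, also chosen with earlier results of these data known. Of 20 semaphorin genes, 16 were tested. After injury Sema6a alone rose in both fractions, and in the input Sema7a, a membrane-anchored semaphorin that binds integrins and plexin-C1, fell (log2 change -1.05 ± 0.25, adjusted p = 0.0412), from 113 ± 23.1 to 54.5 ± 9.76 CPM. That call held only without input naive 2 and was lost without any other library of the comparison (highest adjusted p = 0.201). The median log2 change of the tested semaphorins was 0.45 in the IP and 0.30 in the input. In the IP 5 of the 16 had an unadjusted p under 0.05 (4 higher, 1 lower). In the input 4 had one (2 higher, 2 lower). Of 11 plexin and neuropilin genes 8 were tested and 0 were called for injury by edgeR, with medians of 0.21 in the IP and -0.30 in the input. Plxna2 alone had an unadjusted p under 0.05, in both fractions, and DESeq2 called it in the IP. Of 21 genes of Slits, Robos, FLRTs and the partners of FLRTs 15 were tested. Flrt3 alone passed the threshold, rising in both fractions, beside medians of 0.03 in the IP and -0.03 in the input. With an unadjusted p under 0.05 there were 4 in the IP (1 higher, 3 lower) and 1 in the input (higher).

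Of 8 tested netrin and RGM genes (12 listed) 0 were called for injury by edgeR or DESeq2, with an unadjusted p under 0.05 for 0 in the IP and 1 in the input. Of 18 tested ephrin and Eph genes (22 listed) 0 were called by either tool, and 0 had an unadjusted p under 0.05. The medians of these lists lay between -0.13 and 0.14. Of 42 co-receptors and effectors inside the cell 34 were tested, with list medians of 0.09 and 0.07. Unadjusted p-values under 0.05 were found for 5 in the IP (all higher) and 6 in the input (4 higher, 2 lower). The share of all tested genes under this unadjusted threshold is not given here for injury. Past the adjusted threshold, 2 rose in both fractions. Chl1, an adhesion molecule of the L1 family that works with neuropilin 1, went from 102 ± 22.5 to 331 ± 31.6 CPM in the IP (log2 1.70 ± 0.21, adjusted p = 4.90e-05) and from 165 ± 42.3 to 375 ± 80.8 CPM in the input (1.18 ± 0.21, adjusted p = 0.00364). Crmp1, a collapsin response mediator protein that relays semaphorin 3A signals, went from 126 ± 17.6 to 237 ± 6.64 CPM in the IP (0.92 ± 0.17, adjusted p = 0.00406). In the input Crmp1 rose by 0.75 ± 0.17 (adjusted p = 0.0297), a call lost without input naive 1 or 2 or input injured 1 or 3 (highest adjusted p = 0.174).

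**Figure D5:**
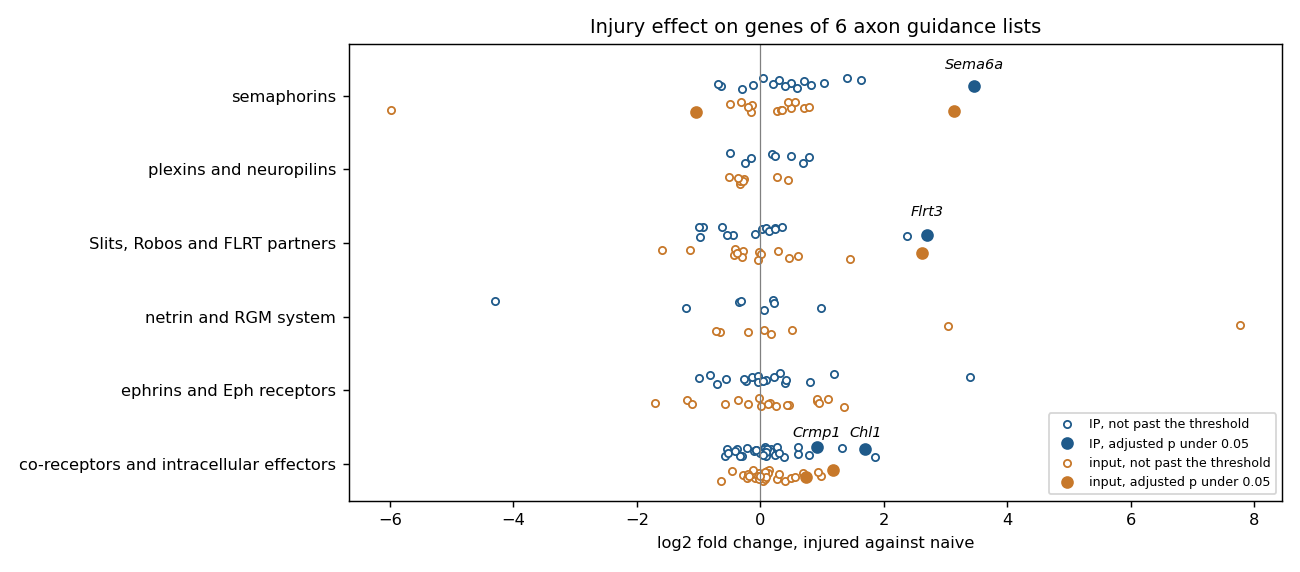
Log2 fold change, injured against naive, of the tested genes of 6 guidance lists in IP (blue) and input (orange). Filled points passed the adjusted threshold. In the IP these are Sema6a (3.46), Flrt3 (2.71), Chl1 (1.70) and Crmp1 (0.92), and in the input the same 4 genes and Sema7a (-1.05).

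Between IP and input a few list genes were called, beside 6.86% of all tested genes in naive and 5.77% in injured ganglia. In naive ganglia 1 of 16 semaphorins, 1 of 8 netrin and RGM genes and 1 of 18 ephrins and Ephs were called. Of 34 effectors 1 was called and of 15 Slit, Robo and FLRT genes 0. Of 8 plexins and neuropilins 1 was higher in the IP and 1 lower. In injured ganglia 1 of 8 plexins and neuropilins and 1 of 8 netrin and RGM genes were called. Of 34 effectors 1 was higher and 1 lower, and the other lists held 0. In naive ganglia Plxnc1, the receptor of Sema7A, was higher in the IP (0.81 ± 0.17, adjusted p = 0.00555), at 324 ± 8.11 against 185 ± 29.1 CPM, as were Rgmb, a ligand of neogenin (0.58 ± 0.15, adjusted p = 0.0221), and Dpysl3, a collapsin response mediator (0.68 ± 0.12, adjusted p = 0.00161). Lower in the IP were Plxnb1, a receptor of class 4 semaphorins (-1.999 ± 0.47, adjusted p = 0.0127), Ephb3, a receptor of B-class ephrins (-1.69 ± 0.40, adjusted p = 0.0129) and the secreted Sema3b (-1.20 ± 0.31, adjusted p = 0.0220). In injured ganglia Plxnc1 (0.93 ± 0.17, adjusted p = 0.00190) and Dpysl3 (0.68 ± 0.12, adjusted p = 0.00186) were again higher in the IP, and Rgma, a repulsive ligand of neogenin (-1.72 ± 0.27, adjusted p = 0.000515), and Srgap2, which binds Robo receptors inside the cell (-1.44 ± 0.33, adjusted p = 0.0110), were lower. The calls of Plxnc1, Dpysl3 and Rgma were kept without any 1 library. Those of the others were each lost without at least 1, with Sema3b lost without IP naive 2 or 3 or input naive 1 or 3, Rgmb without IP naive 1 or input naive 1 or 2, Ephb3 without IP naive 1 or input naive 3, Plxnb1 without IP naive 2, and Srgap2 without IP injured 1 or 2 (highest adjusted p = 0.0968).

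Across the 12 libraries the members fell into patterns, described by Pearson correlation of log2 CPM. The libraries share depth scaling and the same 4 groups, and 12 points in 4 groups are not independent of the injury difference. Sema6a and Flrt3 ran together (r = 0.96), and Plxna2 ran against both (r = -0.84 with Sema6a and -0.78 with Flrt3) and with Robo2 (r = 0.74). Nrp1 correlated with none of the other members beyond 0.39 in size. Among all tested genes, those most like Sema6a were Lipn (r = 0.99) and Gal (0.98), the latter encoding galanin, a neuropeptide. Those most like Flrt3 were Slc6a4 (0.98) and Sox11 (0.97), which encode the serotonin transporter and a transcription factor. Plxna2 was most like Rab37 (0.92) and Tceal3 (0.91), Nrp1 like Kbtbd8 (0.88) and Dtna (0.87), Nrp2 like St13 (0.97) and Top2b (0.93), Robo1 like Adgre5 (0.85) and Fjx1 (0.85), and Robo2 like Usp45 (0.94) and Ppm1k (0.92).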

How the data were processed

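The deposited table holds raw counts per genomic interval and library (12 libraries), not normalised, with a repeat family or NA for each interval. QuantSeq REV libraries were used per the labels' protocols. Per the submitters' processing notes, bcl2fastq 2.17, STAR and HTSeq and the builds GRCm38 and mm10 were named. How intervals were called is not given in the sources used here, nor is the treatment of reads with several alignments, and whether positions count from 0 or 1 is not stated. Of 178451 lines 20 damaged ones were left out, and 17 unnamed columns were not used. Intervals, called positions here, in the first block (86226) were taken as minus strand and those in the second (92205) as plus strand. They were tied to RefSeq genes (GRCm38.p6) on the gene's strand, up to 200 bp past the 3′ end. The strand of a gene came from the RefSeq promoter table (23314 genes) or from the counts (3173 genes), and both readings gave the same strand in 96.0% of 9421 genes. Positions named as repeats and farther than 100 bp from an annotated 3′ end were left out, and the gene sums held 73.6% of the counts. Genes in 34 stretches of the genome (674.9 Mb, 3712 genes) were not analysed here.

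All 12 libraries entered 1 edgeR 4.0.16 quasi-likelihood fit (R 4.3.3) with 1 coefficient for each group, after filterByExpr and TMM scaling, and p-values were adjusted over all genes or positions at a threshold of 0.05. CPM are scaled by TMM. Position use was tested with diffSpliceDGE. DESeq2 1.42.0, other size factors, other filters, other sets of positions, a replicate block and leaving out each library were tried. The tests were also run on simulated counts with known changes. Those counts had no pools shared between groups, and the outcome is not given here, so no result rests on it. The p-values of the main fit measure the spread between libraries of a group, each made from a pool of mice. That fit treats all libraries as independent. Whether libraries of different groups share a pool is not stated, and such a pairing enters only the replicate block. The members and gene lists were chosen with earlier results of these data known. Named are all members, per member the 2 positions with most counts and all called ones, the 2 genes most alike, and the called genes of each list, at most 4 per list and comparison.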

Additional observations from a re-analysis of the deposited data

How the results depend on the processing

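The calls of Sema6a and Flrt3 in both fractions were kept under every alternative tried, except that Flrt3 was lost when only positions at the annotated 3′ end were counted. That choice called 1 member in each injury comparison, and 1 member between fractions of naive ganglia, Sema6a, higher in the IP (2.57, adjusted p = 0.0258). It left 101 genes called for injury in the IP (161 in all), 83 in the input (132), 498 between IP and input in naive (796) and 428 in the injured (669), and it reversed the log2 differences of Robo1 (-2.43 and -8.16 for injury in IP and input, 4.88 for IP against input in injured ganglia, 5.73 for the difference between fractions), Nrp1 (0.0764 for injury in the input) and Plxna2 (-0.0554 for IP against input in injured ganglia). It also reversed the difference between fractions of Sema6a (-2.50), Flrt3 (-0.42), Nrp2 (0.0167) and Robo2 (0.12). The Sema6a values that use input naive rest on the 17 bp position, with 10, 17 and 0 counts in those libraries. The Robo1 values in the input rest on a position with 0 counts in all input injured libraries, depend on the prior count and are no bounds. Such a sum holds fewer positions per gene.

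With repeat-named positions included, 1311 and 1249 genes differed between the fractions of naive and injured ganglia, and Robo1 turned to -0.16 for injury in the IP. Fitting only the 2 groups compared gave 76 genes for injury in the input. DESeq2 called 354 and 284 genes for injury, 1294 and 1061 between IP and input, and 15 for the difference. RLE size factors and DESeq2 turned Sema6a in injured IP against input to -0.00125 in both cases. Without a filter on positions 756 and 490 were called for injury (125 and 90 with it), 10 and 7 of them in members. For position use in naive ganglia the Simes summary called 5 genes and 0 members. The cause of these shifts was not tested.

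Same-numbered libraries of 1 fraction had deviations correlated at 0.018 to 0.103, and all 12 libraries correlated best with one of their own number, a hint from the data and not from the labels. With the replicate number as a block, 226 and 195 genes were called for injury, 1060 and 913 between IP and input, and the same members (Sema6a at 3.47 and Flrt3 at 2.81 in the IP). In the block fit of position use 6 genes and 0 members were called in naive ganglia.

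Leaving out 1 library at a time gave 102 to 194 genes for injury in the IP, 97 to 127 in the input, 511 to 865 and 346 to 551 between the fractions of naive and injured ganglia, and 0 to 2 for the difference. The lowest counts came without IP naive 1 (102 and 511), and 517 were called without IP naive 3, 346 without IP injured 1 and 399 without IP injured 3. Positions called for injury ran from 67 (without IP naive 1) to 318 (without IP naive 2) in the IP, with 79 without IP injured 2, and from 26 to 55 in the input, below 90 without each of the 6 libraries, and those of members from 2 to 4 and from 0 to 2. Position use called 0 to 2 genes for injury in the IP, 0 to 4 in the input, 1 to 16 in naive and 1 to 2 in injured ganglia, with 0 to 1 member in naive ganglia. Log2 differences that turned sign were those of Robo1 (-0.56 to 1.09 for injury in the IP, -0.0814 to 0.55 in the input, -1.10 to 0.34 and -0.95 to 0.0126 between the fractions of naive and injured ganglia, -0.85 to 0.81 for the difference), Robo2 (-0.12 to 0.62 in injured ganglia, -0.46 to 0.27 for the difference), Sema6a (-0.52 to 0.11 and -0.0122 to 0.0878 in naive and injured ganglia, -0.0900 to 0.54 for the difference), Flrt3 (-0.42 to 0.52 in naive ganglia, -0.28 to 0.67 for the difference) and Nrp2 (-0.24 to 0.14 for the difference). Positions that turned were those of Nrp2 at 21729 bp (-0.48 to 0.12 in the IP, -0.27 to 0.0146 in the input), and in the input those of Nrp1 at 17 bp (-0.61 to 0.36), Plxna2 at 4335 bp (-0.24 to 0.23) and Robo2 at 2398 bp (-1.02 to 0.0558).

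Among other genes of the pathway, 4 calls ended under alternatives that kept all libraries. Sema7a in the input was called under 5 of 7 (highest adjusted p = 0.0839), lost with positions at the annotated end only and with the 2 groups compared only. Crmp1 in the input (0.138) and Rgmb in naive ganglia (0.0556) were lost with the 2 groups only, and Plxnb1 in naive ganglia (0.170) with positions at the annotated end only, each called under 6 of 7. Robo1 had at most 160 counts in a library, and whether depth or the spread between pools sets its interval was not tested.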
